A study of Mus musculus with 9 samples.

Results

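Genes of cholesterol synthesis, uptake and regulation were followed in 3T3-L1 pre-adipocytes, a clonal mouse fibroblast line that can be turned into adipocytes in culture, through a list of 31 genes. The list holds the enzymes that build sterols from acetyl-CoA, the regulators of the transcription factor SREBP-2, and carriers that move cholesterol inside the cell. It also holds the pumps that export cholesterol, and enzymes that make or clear oxysterols or make cholesteryl esters. A gene was taken as measured where an array probe set carried its symbol and no other, and of several such probe sets the brightest on average was read. That held for 28 of the 31 genes, and 27 of them passed the filter on low values (the third highest of 9 values at or above 6.51 on the log2 scale, the median of all deposited values). They are 27 of the 12630 genes tested, out of 22180 with a probe set of their own. Ch25h, the cholesterol 25-hydroxylase gene, lay below the filter on both of its probe sets, with values between 5.57 and 6.31. Idi1, the isopentenyl diphosphate isomerase gene, was found only on a probe set shared with other genes, and Acat2 and Soat1 were not analysed here.

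The series holds 9 single-colour arrays in 3 groups of 3, all from confluent cells kept growth-arrested for 48 h. One group received vehicle. Another received a scrambled control siRNA and then 0.5 mM IBMX, a phosphodiesterase inhibitor that raises cAMP, with 1 µM dexamethasone (Dex), a synthetic glucocorticoid, for 6 h. The last group received the same IBMX/Dex treatment after an siRNA against CD24, a small surface glycoprotein, with 100 nmol of siRNA in either siRNA group. Whether the vehicle cells had also been transfected is not given in the labels, so the siRNA procedure and IBMX/Dex cannot be told apart in the differences from vehicle. Nor do the labels call the replicates separate cultures, and the p-values therefore measure the spread between these samples, which may be technical. Values are log2 expression values, so a difference of 1 is a 2-fold change. RNA came from whole cultures, in which fewer cells of a type and less RNA per cell cannot be told apart.

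Animal cells make cholesterol through mevalonate and squalene, and the route is governed at the level of transcription by SREBP-2, the product of Srebf2. When membranes hold enough sterol, INSIG proteins keep the SREBP escort SCAP in the endoplasmic reticulum, and when sterol runs short, SCAP carries SREBP-2 to the Golgi, where proteases release the part that enters the nucleus and binds sterol response elements, usually beside NF-Y and Sp1 sites. Surplus cholesterol is turned into esters or oxysterols, and oxysterols activate liver X receptors, which raise the exporters ABCA1 and ABCG1. Adipocytes hold a large store of unesterified cholesterol at the surface of their lipid droplets.

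The labels were checked first. On the brighter of its 2 probe sets the siRNA target Cd24a stood at 8.88, 9.92 and 9.49 with vehicle, 11.19, 11.73 and 11.81 with scrambled siRNA and IBMX/Dex, and 10.15, 10.16 and 11.72 with CD24 siRNA and IBMX/Dex. On the second probe set it stood at 6.78, 6.42 and 6.69 with vehicle, at 9.28, 8.72 and 9.25 with scrambled siRNA, and at 7.22, 6.68 and 9.08 with CD24 siRNA. The array labelled CD24 siRNA replicate 3 was thus within 0.2 of its scrambled partner on both probe sets, and results on CD24 siRNA are given with and without it. All 8 genes listed as known targets of glucocorticoids or cAMP rose with IBMX/Dex in both siRNA groups (limma, adjusted p under 0.05). Their differences from vehicle ran from 0.53 to 3.28 with scrambled siRNA and from 0.52 to 3.01 with CD24 siRNA. The same fits called 3.33% and 2.92% of all genes tested higher. Of 10 tested fibroblast and pre-adipocyte markers, Pdgfra (-1.04, adjusted p = 0.0185) and Pdgfrb (-1.66, adjusted p = 0.00154) fell with scrambled siRNA and IBMX/Dex in limma, as they did with CD24 siRNA (-1.10 and -1.61). With the replicate block 5 of the 10 fell with scrambled siRNA and 4 with CD24 siRNA, and none rose. Over all genes tested, the block fits called 11.4% lower with scrambled siRNA and 12.1% with CD24 siRNA. Without the block these shares were 3.6% and 3.73%. The summed level of these 10 markers lay at 15.37 to 15.47 with vehicle, 15.05 to 15.19 with scrambled siRNA and 15.11 to 15.17 with CD24 siRNA on the log2 scale, and its part in the changes of the sterol genes was not tested. Lum of the fibroblast list lay below the filter, and Ly6a of that list was not analysed here. The defining adipocyte markers Adipoq, Plin1, Lep and Cidec and the macrophage markers Adgre1, Ptprc and Itgam were all below the filter. So were endothelial Pecam1, Kdr, Tie1 and Tek, and epithelial Epcam, Krt18 and Cdh1. Other genes of these lists passed it, namely Fabp4 and Retn of the adipocyte list, Cdh5 of the endothelial list and Krt8 and Krt14 of the epithelial list, and none of the 5 changed from vehicle in limma with or without the replicate block. The summed level of Fabp4 and Retn ran from 9.32 to 10.52 with vehicle, 9.33 to 10.46 with scrambled siRNA and 8.88 to 10.21 with CD24 siRNA. Cdh5 stayed between 6.51 and 7.10 on all arrays, and the sum of Krt8 and Krt14 ran from 7.62 to 7.64 with vehicle and reached 7.78 with scrambled siRNA and 7.90 with CD24 siRNA. Of 4 tested macrophage markers none passed in limma, and with replicate number as a block Cd14 (0.54) rose and Lyz2 (-0.98) fell with scrambled siRNA. The summed level of these 4 ran from 9.57 to 10.24 with vehicle, 9.76 to 10.56 with scrambled siRNA and 9.85 to 10.35 with CD24 siRNA, and its part was not tested either.

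With scrambled siRNA and 6 h of IBMX/Dex, enzymes at several steps of the sterol route fell together with Srebf2 and Insig1, while a mevalonate-pathway kinase, a sterol ketoreductase and a cholesterol exporter rose. Of the 27 tested genes 8 fell, namely Hmgcs1, Mvk, Fdps, Fdft1, Msmo1, Srebf2, Insig1 and Cyp7b1, and 3 rose, namely Pmvk, Hsd17b7 and Abca1 (limma, adjusted p under 0.05). Over all 12630 genes tested, 3.6% were called lower and 3.33% higher. The median difference of the 27 genes was -0.28, beside 0.02 over all genes tested. Same-numbered arrays of the 3 groups deviated together, and with the replicate number as a block 13 of the 27 genes fell and 3 rose, where 11.4% of all genes were called lower and 11.9% higher. The 5 genes added by the block were Mvd, Sqle, Nsdhl, Sc5d and Dhcr7, all of them enzymes. Among the 16 tested enzymes between acetyl-CoA and cholesterol the difference was negative for 14, of which 5 fell without the block and 10 with it, and the other 2, Pmvk and Hsd17b7, rose in both fits. Leaving out 1 array reduced the unblocked count of falling genes from 8 to 4 without scrambled replicate 1, to 3 without scrambled replicate 2 or 3, to 5 without vehicle replicate 2 and to 4 without vehicle replicate 3. The count over all 12630 genes fell in the same fits, from 455 lower to 213, 251 and 137 without scrambled replicates 1, 2 and 3, and to 386 and 207 without vehicle replicates 2 and 3. The count of rising genes went from 3 to 0 without scrambled replicate 3 and to 1 without any 1 of the vehicle arrays, where the count over all genes went from 421 to 176 without scrambled replicate 3 and to 441, 243 and 278 without vehicle replicates 1, 2 and 3. In the 10 fits with the block, of all arrays or with each left out in turn, all 11 genes kept their calls. The 5 genes added by the block were less stable, apart from Nsdhl. Nsdhl passed in all 10 of these fits, Sc5d in 8, Mvd and Dhcr7 in 6 and Sqle in 4. Over the 17 alternatives that changed 1 choice of the main fit, Fdps and Srebf2 kept their calls in 17, Msmo1 and Abca1 in 16, Cyp7b1 in 14, Mvk in 13, Insig1 in 12, Pmvk in 11, Hmgcs1 in 10, Hsd17b7 in 9 and Fdft1 in 8.

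**Figure D1:**
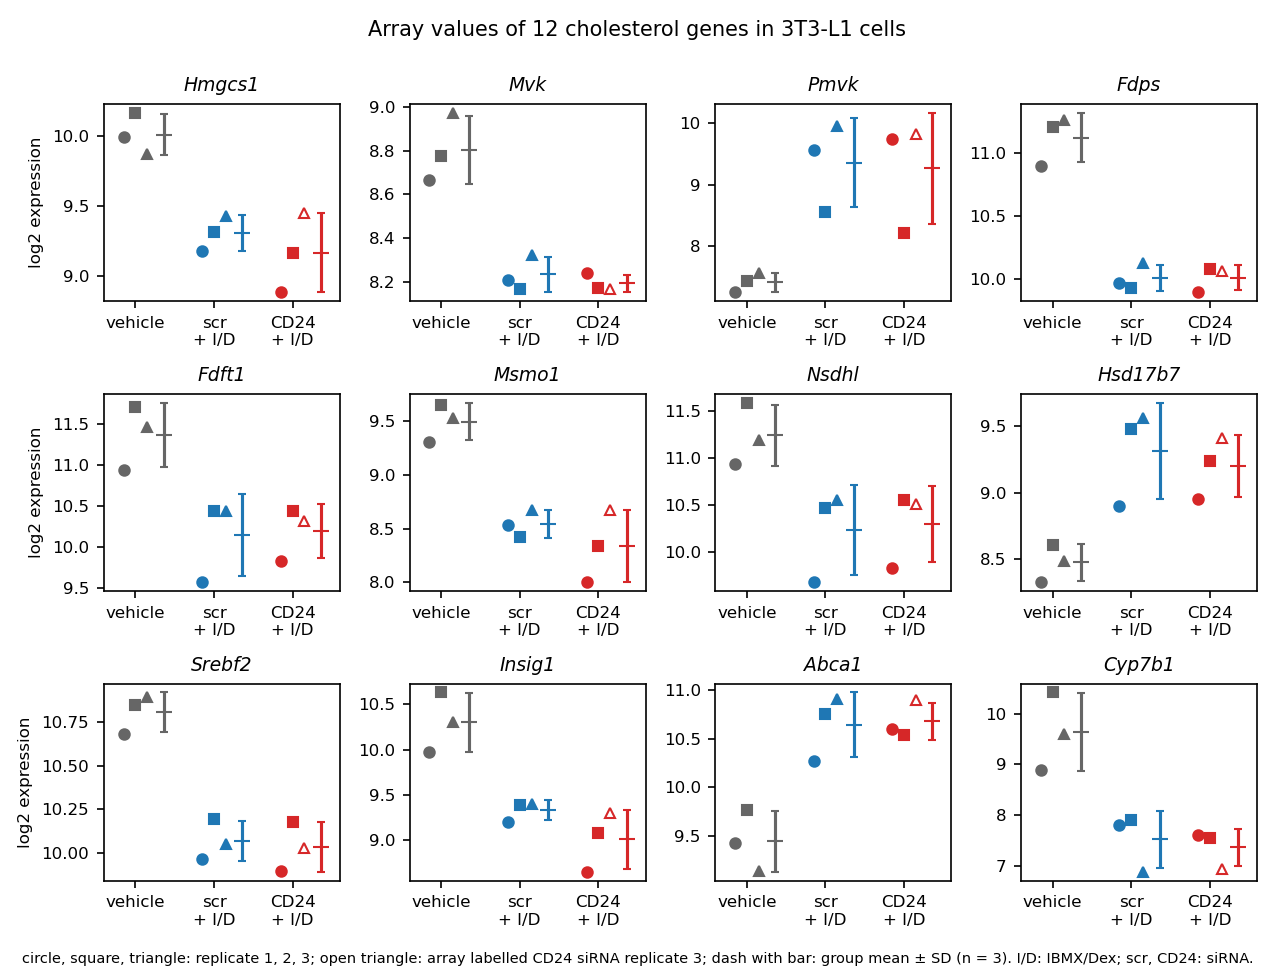
Log2 expression of 12 genes on the 9 arrays, by group, with circles, squares and triangles for replicates 1, 2 and 3, an open triangle for the array labelled CD24 siRNA replicate 3, and a dash with a bar for the group mean and SD (n = 3); I/D is IBMX/Dex, and each panel has its own scale. In each of the 12 panels the vehicle arrays stand apart from both IBMX/Dex groups, above them for 9 genes and below them for Pmvk, Hsd17b7 and Abca1. The 12 genes were picked from those called against vehicle with or without the block, so their separation is not a further result.

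The bases before the annotated start of 6 of these genes are shown because SREBP-2 and its partners are known to bind close to the starts of such genes, for 4 genes that fell (Hmgcs1, Mvk, Msmo1, Insig1) and for 2 that rose (Pmvk, Hsd17b7). They are 250 bases each from RefSeq (GRCm38.p6), written 5′ to 3′ on the strand of the gene. They lie at chr13:119690101-119690350 (plus strand) for Hmgcs1, chr5:114444019-114444268 (plus) for Mvk, chr8:64733579-64733828 (minus) for Msmo1, chr5:28071162-28071411 (plus) for Insig1, chr1:169969206-169969455 (minus) for Hsd17b7 and chr3:89454291-89454540 (plus) for the first of 2 starts of Pmvk. Capitals mark matches, on either strand, to the sterol response element TCACNCCAC, the NF-Y box CCAAT, the GC box GGGCGG bound by Sp1, and the E-box CACGTG, and no 2 different motifs overlapped in these genes.
Hmgcs1: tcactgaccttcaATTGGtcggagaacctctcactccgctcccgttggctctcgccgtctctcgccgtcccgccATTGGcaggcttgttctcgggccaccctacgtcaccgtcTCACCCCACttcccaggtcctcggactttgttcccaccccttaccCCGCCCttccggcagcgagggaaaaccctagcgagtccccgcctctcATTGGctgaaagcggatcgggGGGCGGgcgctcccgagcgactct
Mvk: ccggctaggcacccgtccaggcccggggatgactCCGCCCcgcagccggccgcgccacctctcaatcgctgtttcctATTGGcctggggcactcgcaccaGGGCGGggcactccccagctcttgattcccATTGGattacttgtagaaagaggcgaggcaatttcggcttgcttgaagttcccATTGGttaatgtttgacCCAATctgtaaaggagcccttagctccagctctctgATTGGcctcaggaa
Msmo1: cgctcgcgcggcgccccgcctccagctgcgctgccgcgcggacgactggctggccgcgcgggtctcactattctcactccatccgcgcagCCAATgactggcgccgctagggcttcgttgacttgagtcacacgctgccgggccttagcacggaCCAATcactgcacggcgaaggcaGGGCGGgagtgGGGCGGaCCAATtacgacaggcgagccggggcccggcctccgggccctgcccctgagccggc
Insig1: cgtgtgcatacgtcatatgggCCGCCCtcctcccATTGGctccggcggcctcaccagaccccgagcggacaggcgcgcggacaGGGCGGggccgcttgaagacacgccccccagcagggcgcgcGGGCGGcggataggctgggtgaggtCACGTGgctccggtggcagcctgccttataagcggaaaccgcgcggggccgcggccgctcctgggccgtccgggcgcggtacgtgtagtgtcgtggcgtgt
Hsd17b7: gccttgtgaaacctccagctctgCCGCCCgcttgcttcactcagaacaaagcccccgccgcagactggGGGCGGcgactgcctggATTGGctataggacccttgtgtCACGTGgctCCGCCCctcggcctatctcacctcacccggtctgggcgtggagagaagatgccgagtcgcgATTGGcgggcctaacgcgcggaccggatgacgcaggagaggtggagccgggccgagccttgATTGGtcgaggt
Pmvk: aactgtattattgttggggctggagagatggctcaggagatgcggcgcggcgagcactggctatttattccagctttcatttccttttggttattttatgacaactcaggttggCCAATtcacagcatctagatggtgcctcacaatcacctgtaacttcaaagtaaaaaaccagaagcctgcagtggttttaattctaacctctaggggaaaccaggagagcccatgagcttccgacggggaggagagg

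Promoter windows of 300 bases, 250 before and 50 after a start, were at hand for 24 of the 31 genes. They include Acat2, Idi1, Ch25h and Soat1, which were not tested on the arrays. The NF-Y box was found in 20 of the 24 genes (83.3%), beside 42.1% of the 9893 tested genes with a window. Over all 27025 genes with a window the share was 41.1%. Of 24 genes 21 held the GC box (87.5%), beside 66.5% of tested genes and 38.2% of all genes with a window. The E-box was found in 6 genes (25.0%), Abca1, Dhcr7, Hsd17b7, Insig1, Sc5d and Scap, beside 11.5% of tested genes and 8.09% of all genes. Only Hmgcs1 held the sterol response element in the strict form searched, 137 bases before the start. That form was found in 1.41% of tested genes and 1.44% of all genes with a window. Mvk held 5 NF-Y boxes and Msmo1 held 3 in the bases shown, and so did Hsd17b7, which moved the other way, while the Pmvk window held 1 and no GC box. A match is a string of letters and not a measured binding site, and a window without one says nothing of the factor.

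**Figure D2:**
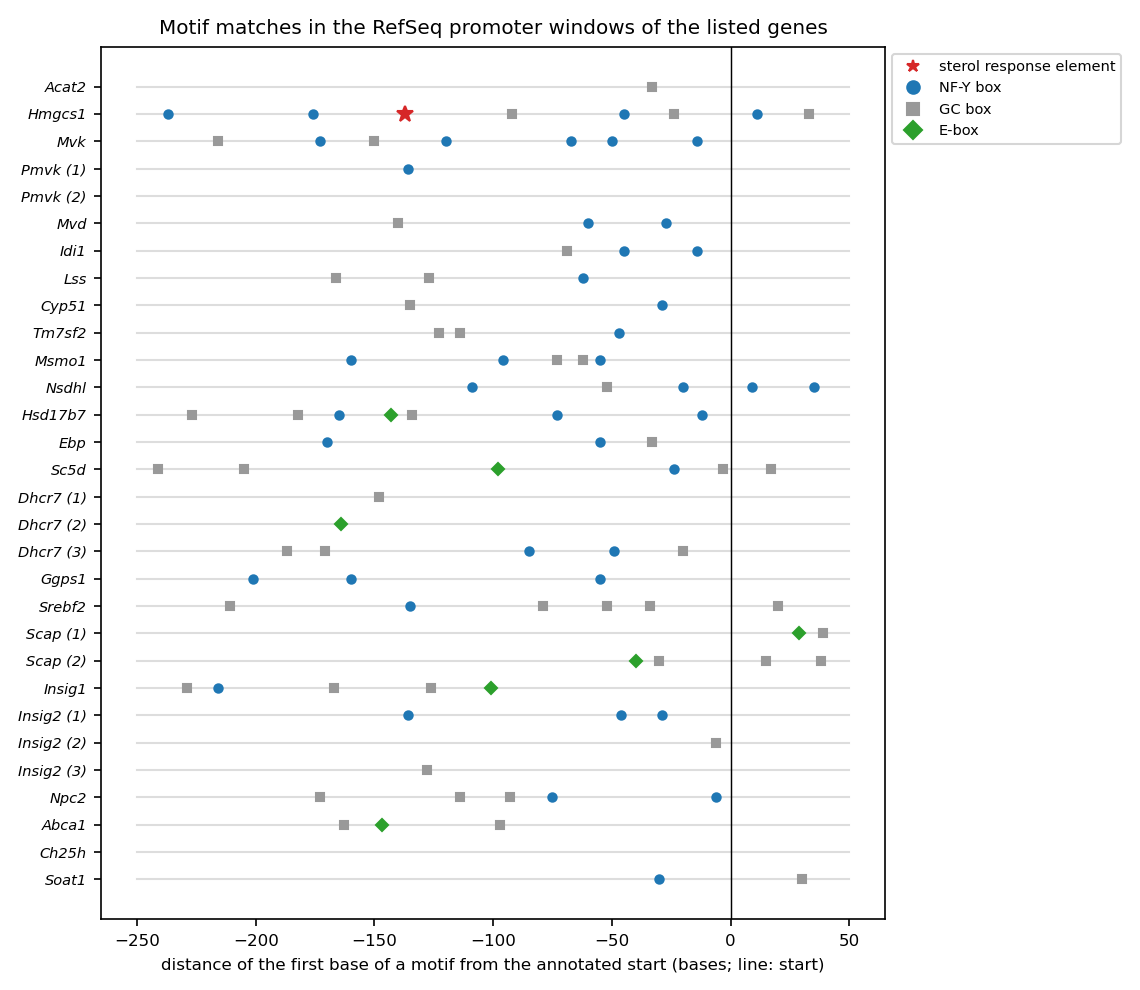
Positions of the 4 motifs in the RefSeq promoter windows of 24 listed genes, with the distance in bases from the annotated start (vertical line) on the horizontal axis and 1 row for each start (numbered where a gene has several). NF-Y boxes (blue circles) appear in 20 genes, GC boxes (grey squares) in 21, E-boxes (green diamonds) in 6 and the sterol response element (red star) in Hmgcs1.

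The mevalonate enzymes came first in the route. Hmgcs1, the cytosolic HMG-CoA synthase, stood at 9.99, 10.16 and 9.87 with vehicle, 9.18, 9.31 and 9.43 with scrambled siRNA and IBMX/Dex, and 8.89, 9.16 and 9.45 with CD24 siRNA and IBMX/Dex. All IBMX/Dex arrays lay below all vehicle arrays, and the mean was 1.63-fold lower with scrambled siRNA (log2 difference -0.70 ± 0.16 SE, limma adjusted p = 0.0303). Mvk, mevalonate kinase, stood at 8.66, 8.78 and 8.97 with vehicle, 8.21, 8.17 and 8.32 with scrambled siRNA and IBMX/Dex, and 8.24, 8.17 and 8.17 with CD24 siRNA and IBMX/Dex. Its 6 IBMX/Dex arrays spanned 8.17 to 8.32, below every vehicle array, a 1.49-fold fall with scrambled siRNA (-0.57 ± 0.11 SE, limma adjusted p = 0.0172). Pmvk, phosphomevalonate kinase, the enzyme of the next step, moved the other way. It stood at 7.25, 7.43 and 7.55 with vehicle, 9.56, 8.56 and 9.96 with scrambled siRNA and IBMX/Dex, and 9.74, 8.22 and 9.83 with CD24 siRNA and IBMX/Dex. Arrays numbered 2 were the lowest of both IBMX/Dex groups, yet each stayed above the highest vehicle array, and Pmvk rose 3.85-fold with scrambled siRNA (1.95 ± 0.45 SE, limma adjusted p = 0.0364), the largest difference upwards among the 27 genes.

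Mvd, which decarboxylates the resulting diphosphate to isopentenyl diphosphate, stood at 8.07, 7.86 and 8.60 with vehicle, 7.80, 7.52 and 7.61 with scrambled siRNA and IBMX/Dex, and 7.80, 7.48 and 7.65 with CD24 siRNA and IBMX/Dex. Its groups did not overlap, but the vehicle arrays were spread over 7.86 to 8.60, and the difference of -0.53 with scrambled siRNA passed with the block (limma adjusted p = 0.0264) and not without it (adjusted p = 0.127). Fdps, farnesyl diphosphate synthase, stood at 10.90, 11.20 and 11.26 with vehicle, 9.96, 9.92 and 10.12 with scrambled siRNA and IBMX/Dex, and 9.89, 10.08 and 10.06 with CD24 siRNA and IBMX/Dex. The gap between the lowest vehicle array and the highest IBMX/Dex array was wider than the range of any group, and Fdps fell 2.17-fold with scrambled siRNA (-1.12 ± 0.13 SE, limma adjusted p = 0.00162), the smallest adjusted p of the 27 genes. Ggps1, which takes farnesyl diphosphate on to the geranylgeranyl lipids used to anchor proteins in membranes, stood at 8.36, 8.27 and 8.55 with vehicle, 8.43, 8.93 and 8.82 with scrambled siRNA and IBMX/Dex, and 8.51, 8.92 and 8.38 with CD24 siRNA and IBMX/Dex. Its groups overlapped and the difference of 0.34 with scrambled siRNA did not pass (limma adjusted p = 0.308).

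Squalene and the sterols follow. Fdft1, squalene synthase, the first enzyme committed to sterols, stood at 10.94, 11.71 and 11.47 with vehicle, 9.58, 10.44 and 10.44 with scrambled siRNA and IBMX/Dex, and 9.83, 10.44 and 10.33 with CD24 siRNA and IBMX/Dex. Array 1 was the lowest of each group, and the same-numbered differences from vehicle with scrambled siRNA were -1.36, -1.27 and -1.02, a 2.33-fold fall (-1.22 ± 0.29 SE, limma adjusted p = 0.0369). Fdft1 overlaps the cathepsin gene Ctsb in RefSeq, and whether its probes read that transcript too is not known here. Sqle, squalene epoxidase, stood at 9.91, 10.40 and 10.01 with vehicle, 9.61, 9.94 and 9.74 with scrambled siRNA and IBMX/Dex, and 9.36, 9.79 and 9.71 with CD24 siRNA and IBMX/Dex. Array 2 of the scrambled group lay above the lowest vehicle array, all 3 same-numbered differences were negative (-0.31, -0.46 and -0.27), and Sqle passed with the block (limma adjusted p = 0.0323) and not without it (adjusted p = 0.269).

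Msmo1, the sterol C4-methyl oxidase, stood at 9.31, 9.65 and 9.53 with vehicle, 8.54, 8.42 and 8.68 with scrambled siRNA and IBMX/Dex, and 8.00, 8.34 and 8.67 with CD24 siRNA and IBMX/Dex. No IBMX/Dex array reached the vehicle range, and Msmo1 fell 1.93-fold with scrambled siRNA (-0.95 ± 0.17 SE, limma adjusted p = 0.0148). Nsdhl, the dehydrogenase that works with it in removing the C4 methyl groups, stood at 10.94, 11.58 and 11.19 with vehicle, 9.68, 10.47 and 10.56 with scrambled siRNA and IBMX/Dex, and 9.83, 10.56 and 10.51 with CD24 siRNA and IBMX/Dex. Array 1 was again the lowest of each group, the groups did not overlap, and the difference of -1.002 with scrambled siRNA passed with the block (limma adjusted p = 6.82e-04) and not without it (adjusted p = 0.0683). Hsd17b7, the ketoreductase of the same demethylation, moved against its partners. It stood at 8.33, 8.61 and 8.49 with vehicle, 8.90, 9.48 and 9.56 with scrambled siRNA and IBMX/Dex, and 8.95, 9.24 and 9.41 with CD24 siRNA and IBMX/Dex. Each IBMX/Dex array was above every vehicle array, and Hsd17b7 rose 1.78-fold with scrambled siRNA (0.84 ± 0.19 SE, limma adjusted p = 0.0349).

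Of the last steps, Sc5d, the lathosterol oxidase, stood at 10.21, 10.72 and 10.77 with vehicle, 9.98, 10.11 and 10.21 with scrambled siRNA and IBMX/Dex, and 9.69, 10.06 and 10.21 with CD24 siRNA and IBMX/Dex. The scrambled arrays just touched the vehicle range from below, and the difference of -0.47 passed with the block (limma adjusted p = 0.0119) and not without it (adjusted p = 0.171). Dhcr7, the 7-dehydrocholesterol reductase that closes 1 of the branches, stood at 8.36, 8.83 and 8.58 with vehicle, 8.15, 8.12 and 7.87 with scrambled siRNA and IBMX/Dex, and 8.27, 8.12 and 7.77 with CD24 siRNA and IBMX/Dex. Its difference was small for number 1 and larger for numbers 2 and 3 (-0.21, -0.71 and -0.71 with scrambled siRNA), and it too passed with the block (limma adjusted p = 0.0201) and not without it (adjusted p = 0.0900).

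The other 4 sterol enzymes did not pass in either fit. Lss, the cyclase that folds squalene epoxide into lanosterol, differed from vehicle by -0.20 with scrambled siRNA, Cyp51, lanosterol 14-alpha-demethylase, by -0.21, Tm7sf2, a sterol C14 reductase, by -0.18, and Ebp, the sterol isomerase, by -0.19. Tm7sf2 overlaps the protein-coding gene Vps51 in RefSeq, and Mvd, Fdps, Lss, Insig1 and Cyp7b1 overlap genes of noncoding RNAs. Lss, Ebp, Tm7sf2 and Cyp51 followed the replicate number more than the group. The number held 83.0% of the sum of squares over the 9 arrays for Lss, 86.0% for Ebp, 58.6% for Tm7sf2 and 40.7% for Cyp51. For Fdps the group held 95.4% and for Mvk 91.5%. Over the 27 genes the median share was 61.1% for the group and 24.0% for the number, and the group's share was the larger for 18 genes. The shares were not computed over all genes tested.

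**Figure D3:**
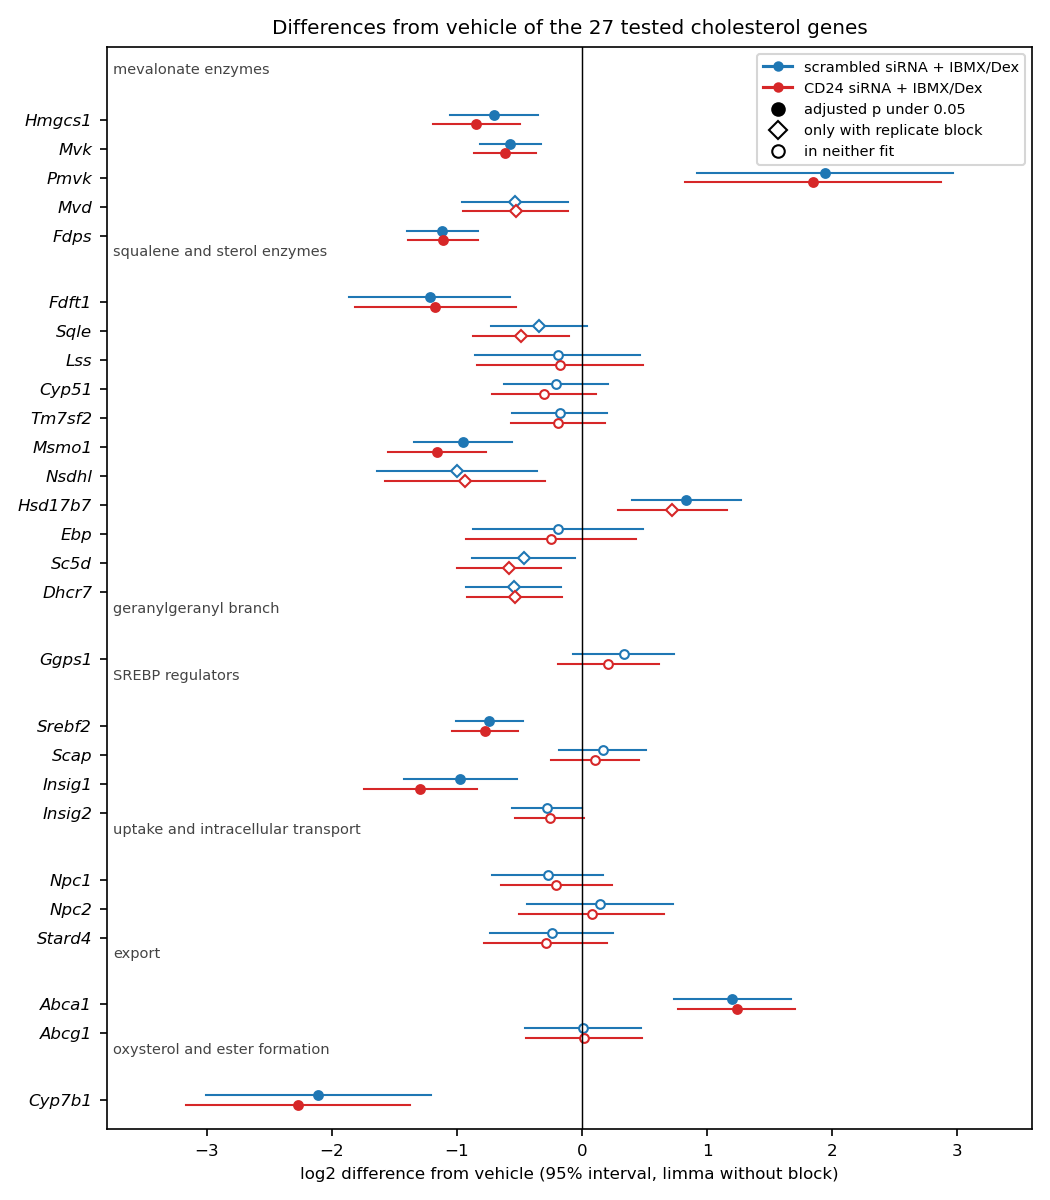
Log2 differences from vehicle (horizontal axis, with 95% intervals of limma without the block) of the 27 tested genes, ordered by role, for scrambled siRNA with IBMX/Dex (blue) and CD24 siRNA with IBMX/Dex (red). Filled circles passed an adjusted p of 0.05, open diamonds passed only with the replicate block and open circles passed in neither fit. Both groups are set against the same 3 vehicle arrays, and 14 of the 16 enzymes lie left of 0 in each.

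Of the 4 regulators, the transcription factor gene and its sterol-sensitive brake fell. Srebf2 stood at 10.68, 10.85 and 10.90 with vehicle, 9.96, 10.19 and 10.05 with scrambled siRNA and IBMX/Dex, and 9.89, 10.18 and 10.03 with CD24 siRNA and IBMX/Dex. The 6 IBMX/Dex arrays lay within 9.89 to 10.19 and the vehicle arrays within 10.68 to 10.90, and Srebf2 fell 1.67-fold with scrambled siRNA (-0.74 ± 0.12 SE, limma adjusted p = 0.00804). The gene of the microRNA Mir33 lies inside Srebf2. Insig1, which is both an anchor of SCAP and a classic SREBP target, stood at 9.98, 10.63 and 10.30 with vehicle, 9.20, 9.39 and 9.40 with scrambled siRNA and IBMX/Dex, and 8.65, 9.08 and 9.29 with CD24 siRNA and IBMX/Dex. Every IBMX/Dex array was below every vehicle array, and Insig1 fell 1.96-fold with scrambled siRNA (-0.97 ± 0.20 SE, limma adjusted p = 0.0233).

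Insig2, its paralog, which is known to depend less on SREBP, stood at 8.25, 8.57 and 8.35 with vehicle, 8.08, 8.25 and 8.01 with scrambled siRNA and IBMX/Dex, and 8.18, 8.21 and 8.01 with CD24 siRNA and IBMX/Dex. The highest scrambled array just reached the lowest vehicle array, and the difference of -0.28 did not pass (limma adjusted p = 0.218, and 0.0661 with the block). Scap differed by 0.17 on its brighter probe set and by 0.09 on its dimmer one, did not pass (adjusted p = 0.587), and followed the replicate number (76.5% of its sum of squares).

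None of the 3 genes of uptake and intracellular transport passed in either fit. Npc1, which lifts cholesterol out of the lysosomal membrane, stood at 10.03, 10.41 and 10.72 with vehicle, 9.86, 10.09 and 10.40 with scrambled siRNA and IBMX/Dex, and 10.21, 10.03 and 10.31 with CD24 siRNA and IBMX/Dex. Stard4, a soluble sterol carrier, stood at 7.55, 8.26 and 7.64 with vehicle, 7.44, 7.93 and 7.36 with scrambled siRNA and IBMX/Dex, and 7.36, 7.71 and 7.52 with CD24 siRNA and IBMX/Dex. The groups overlapped for both genes, with differences from vehicle of -0.27 and -0.24 with scrambled siRNA. Npc1 overlaps the gene Rmc1, and its dimmer probe set gave 0.24. For Npc2, the lysosomal partner of Npc1, the difference was 0.15, and the replicate number held 94.6% of its sum of squares, the highest share among the 27 genes.

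Of the 2 exporters Abca1 passed and Abcg1 did not. Abca1, which loads cholesterol onto apolipoprotein A-I, stood at 9.42, 9.77 and 9.14 with vehicle, 10.28, 10.75 and 10.91 with scrambled siRNA and IBMX/Dex, and 10.60, 10.54 and 10.90 with CD24 siRNA and IBMX/Dex. No IBMX/Dex array was as low as the highest vehicle array, and Abca1 rose 2.30-fold with scrambled siRNA (1.20 ± 0.21 SE, limma adjusted p = 0.0115). Abcg1, which exports cholesterol to high-density lipoprotein, stood at 7.46, 7.20 and 7.96 with vehicle, 7.80, 7.55 and 7.30 with scrambled siRNA and IBMX/Dex, and 7.76, 7.45 and 7.47 with CD24 siRNA and IBMX/Dex. Its difference of 0.01 (95% interval -0.45 to 0.48) hid same-numbered differences of 0.34, 0.34 and -0.65, positive for numbers 1 and 2 and negative for number 3.

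Cyp7b1, the oxysterol 7-alpha-hydroxylase, which clears 25- and 27-hydroxycholesterol, showed the largest difference of the 27 genes. It stood at 8.90, 10.42 and 9.60 with vehicle, 7.80, 7.90 and 6.89 with scrambled siRNA and IBMX/Dex, and 7.62, 7.54 and 6.94 with CD24 siRNA and IBMX/Dex. The vehicle arrays ran from 8.90 to 10.42 and all IBMX/Dex arrays lay below 8, with same-numbered differences of -1.09, -2.51 and -2.72 with scrambled siRNA. Cyp7b1 fell 4.31-fold (-2.11 ± 0.40 SE, limma adjusted p = 0.0167).

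The group given CD24 siRNA before IBMX/Dex was set against the same 3 vehicle arrays, so its differences from vehicle are not independent of those above. Of the 27 genes 8 fell, beside 3.73% of all genes tested, and 2 rose, beside 2.92% (limma, adjusted p under 0.05). The 8 were Hmgcs1 (-0.84), Mvk (-0.61), Fdps (-1.11), Fdft1 (-1.17), Msmo1 (-1.16), Srebf2 (-0.78), Insig1 (-1.29) and Cyp7b1 (-2.27). Pmvk (1.85) and Abca1 (1.24) rose. Hsd17b7 was 0.72 above vehicle and passed with the block (limma adjusted p = 0.00235) and not without it (adjusted p = 0.0579). With the block 13 genes fell and 3 rose, where 12.1% of all genes were called lower and 10.4% higher. Mvd (-0.53), Sqle (-0.49), Nsdhl (-0.94), Sc5d (-0.58) and Dhcr7 (-0.54) were again the genes that fell only with it. The median difference was -0.30 over the 27 genes and 0.02 over all genes tested.

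With the array labelled CD24 siRNA replicate 3 left out, 5 of the 27 genes fell from vehicle, namely Fdps, Hmgcs1, Insig1, Msmo1 and Srebf2, and Abca1 alone rose. Over all 12630 genes the same fit called 158 lower and 163 higher, in place of 471 and 369 with all arrays. Mvk (-0.60), Fdft1 (-1.24), Cyp7b1 (-2.06) and Pmvk (1.57) kept their direction and did not pass. With the block and without that array 11 genes fell and 3 rose, where 844 of all genes were called lower and 919 higher. Without CD24 siRNA replicate 2 the unblocked count of falling genes was also 5 (187 over all genes), and the count of rising genes was 1 without CD24 siRNA replicate 1, scrambled replicate 3 or any 1 of the vehicle arrays.

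CD24 siRNA was then compared with scrambled siRNA within IBMX/Dex, the comparison that bears on CD24 itself. No gene of the 27 passed in either direction, with the block or without it, and 0% of the 12630 genes tested were called lower or higher in either fit (limma, adjusted p under 0.05). At an unadjusted p under 0.05 there were 0 of the 27 genes without the block and 1 with it, and 30 and 219 of all genes tested. The 27 differences ran from -0.32 to 0.07 with a median of -0.05, beside -0.01 over all genes. Every one of the 27 genes had overlapping values in both siRNA groups, and the share of all genes tested with such overlap was not counted. The 95% interval of a difference extended by a median of 0.42 to either side without the block and 0.28 with it. These intervals are not adjusted for the 12630 genes tested. Differences within those bounds, and larger ones, could thus go undetected with 3 arrays a group. Cd24a itself, with a difference of -0.90, passed in neither fit.

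Insig1 had the lowest difference. Its same-numbered differences between CD24 and scrambled siRNA were -0.55, -0.30 and -0.10, and their mean of -0.32 had an unadjusted limma p of 0.145 without the block and 0.0313 with it (adjusted p = 1 in both). Msmo1 followed, with same-numbered differences of -0.53, -0.08 and -0.0023. Cd24a itself differed by -1.04, -1.57 and -0.10 on its brighter probe set for numbers 1, 2 and 3, and did not pass in either fit. When the array labelled CD24 siRNA replicate 3 was left out, the difference was -0.46 for Insig1 and -0.37 for Msmo1. Then 0 of the 27 genes passed the adjusted threshold in limma in either fit, and an unadjusted p under 0.05 was reached by Msmo1 alone without the block and by Insig1 and Msmo1 with it. For Fdps, Srebf2, Abca1 and Pmvk the differences between the siRNA groups over all arrays were 0.01, -0.04, 0.03 and -0.10. The 95% intervals of these differences were -0.28 to 0.29 for Fdps, -0.30 to 0.23 for Srebf2, -0.43 to 0.50 for Abca1 and -1.12 to 0.93 for Pmvk.

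**Figure D4:**
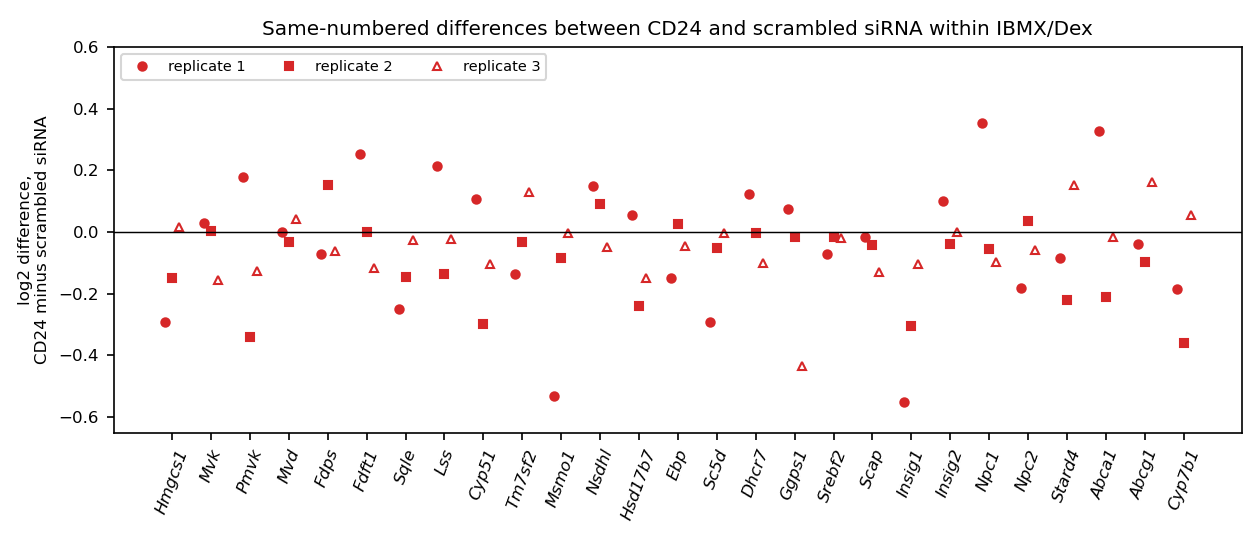
Same-numbered log2 differences, CD24 siRNA minus scrambled siRNA, both with IBMX/Dex (vertical axis), for the 27 tested genes, with circles, squares and open triangles for replicates 1, 2 and 3. Most points lie within 0.3 of 0. For 6 of the 27 genes all 3 differences are negative, and for 0 all 3 are positive. Insig1 is 1 of the 6, with differences from -0.55 to -0.10. The share of all genes tested with 3 negative differences was not counted.

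Further genes of sterol and isoprenoid metabolism were read from 6 lists made by function. Of 13 tested factors that process or degrade SREBP and its partners, 1 rose with scrambled siRNA and IBMX/Dex in limma. That was Erlin1 (0.51, adjusted p = 0.0182), part of an endoplasmic reticulum complex that takes part in sterol-regulated protein degradation. Its partner Erlin2 differed by -0.37, which passed only with the block (adjusted p = 0.0148), and fell in the CD24 siRNA group (-0.51, adjusted p = 0.0176). Srebf1, the gene of the related factor SREBP-1, stood -0.40 from vehicle and did not pass (adjusted p = 0.167, and 0.0748 with the block). With the block 1 of the 13 fell (Erlin2) and 2 rose (Erlin1 and Rnf145) in either IBMX/Dex group. Of 18 sterol carriers and membrane contact proteins, Gramd1b, which moves cholesterol from the plasma membrane to the endoplasmic reticulum, fell (-0.97, adjusted p = 0.0273) and Osbpl8, an oxysterol-binding protein relative, rose (0.48, adjusted p = 0.0248). In the CD24 siRNA group Gramd1b (-0.82) and Lipa (-0.81), the lysosomal acid lipase that frees cholesterol from its esters, fell. With the block 4 of the 18 fell (Gramd1b, Lipa, Osbpl5 and Osbpl9) and 2 rose (Osbpl8 and Gramd1a) with scrambled siRNA, and 5 fell (Gramd1b, Lipa, Osbpl1a, Osbpl5 and Osbpl9) and 1 rose (Osbpl8) with CD24 siRNA. The shares over all genes in the block fits were 11.4% lower and 11.9% higher with scrambled siRNA, and 12.1% and 10.4% with CD24 siRNA.

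The genes of the liver X receptors themselves were not tested, as Nr1h3 lay below the filter and Nr1h2 was not analysed here. Beside the rise of Abca1, none of 5 tested liver X receptor targets passed in limma without the block in either IBMX/Dex group. Mylip, a known target of that receptor, rose with the block (0.41 with scrambled siRNA, adjusted p = 0.0231, and 0.40 with CD24 siRNA, adjusted p = 0.0268). Pltp, the phospholipid transfer protein gene and a target of the same receptor, fell with the block with CD24 siRNA (-0.49, adjusted p = 0.0215) and stood at -0.23 with scrambled siRNA (adjusted p = 0.224 with the block). Of 9 lipoprotein receptor and ester turnover genes, Scarb1, a receptor that exchanges cholesterol with high-density lipoprotein, fell in both IBMX/Dex groups (-0.64 with scrambled siRNA and -0.65 with CD24 siRNA), and with the block Lrpap1 rose in both. Of 13 genes of the prenyl, dolichol and ubiquinone branches, Nus1, a subunit of the enzyme that starts dolichol from farnesyl diphosphate, rose in both (0.97 and 0.90). With the block Icmt rose as well in both groups, and with CD24 siRNA Dhdds and Zmpste24 rose and Rabggta fell. Over all genes tested, limma called 3.6% lower and 3.33% higher with scrambled siRNA, and 3.73% and 2.92% with CD24 siRNA. With the block these shares were 11.4% and 11.9% with scrambled siRNA, and 12.1% and 10.4% with CD24 siRNA. A further 4 genes of sterol synthesis and lipoprotein uptake were not analysed here.

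Fatty acid synthesis genes, which SREBP-1 is known to drive, went both ways. Of 15 tested, 4 rose and 2 fell with scrambled siRNA and IBMX/Dex in limma, beside 3.33% and 3.6% of all genes. With the block 5 rose and 6 fell, beside 11.9% and 11.4%. Fads2, a fatty acid desaturase, fell (-0.74, adjusted p = 0.00532), and so did Acss2, the acetyl-CoA synthetase (-0.63, adjusted p = 0.0392). Elovl5, a fatty acid elongase (0.89, adjusted p = 0.0163), and Fasn, fatty acid synthase (0.70, adjusted p = 0.0294), rose. Fasn stood at 10.95, 11.22 and 11.39 with vehicle, 11.68, 11.94 and 12.03 with scrambled siRNA and IBMX/Dex, and 11.67, 11.73 and 11.99 with CD24 siRNA and IBMX/Dex, with no overlap between vehicle and either IBMX/Dex group. Hmgcs1 and Fdps thus fell on the same arrays on which Fasn rose. Between the siRNA groups none of these lists had a gene past the threshold in either fit.

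**Figure D5:**
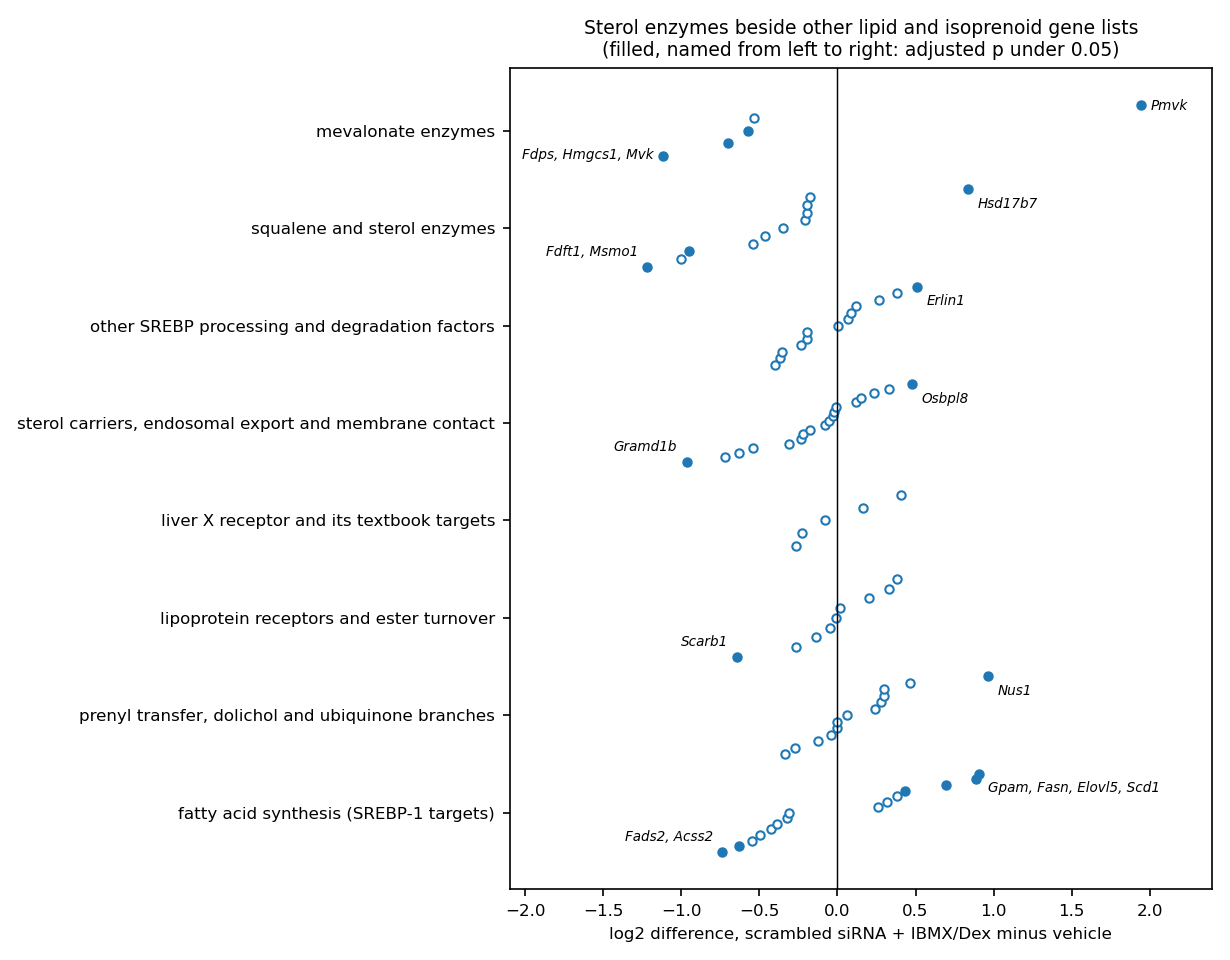
Log2 differences between scrambled siRNA with IBMX/Dex and vehicle (horizontal axis), 1 point for each tested gene, in the mevalonate and sterol enzyme groups and in 6 further lists. Filled points, named from left to right beside their list, passed limma at an adjusted p of 0.05. In the 2 enzyme groups 14 of 16 points lie below 0, and fatty acid synthesis genes lie on both sides.

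All adjusted p-values came from limma over the 12630 genes with Benjamini-Hochberg adjustment, and a difference with 3 arrays a group had a median 95% interval of 0.34 log2 units, or 1.27-fold, to either side. An exact permutation test of 1 gene over 3 against 3 arrays could not go below p = 0.1, which is why none is given.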

How the data were processed

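The authors deposited log2 expression values of 41345 probe sets on 9 arrays, made with RMA in the oligo package, per the submitters' processing notes, with no version named there. RMA gives arrays nearly the same distribution (array medians 6.47 to 6.56), so a shift of most transcripts in 1 direction would be lost. Per the labels, 250 ng of RNA was used. Genes were named from the platform annotation (23521 probe sets with 1 symbol, 1814 with several, 16010 without). The members and gene lists were chosen with earlier results of these data known.

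Differences were fitted with limma 3.58.1 (R 4.3.3) on all 9 arrays, 1 mean per group, two-sided, adjusted by Benjamini-Hochberg over all 12630 tested genes. Arrays are named by group and replicate number from the titles. Deviations from the group mean correlated at 0.377 to 0.732 between same-numbered arrays and at most at 0.116 between others, and the numbers therefore count as pairs. The fit with the number as a block is given for members where it changes a call, and for other lists against vehicle as counts or names. Within groups the arrays correlated at 0.963 to 0.990. The number of arrays limits the precision.

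Values in every array are given for members past the threshold in either fit and for the 2 members of a role group with the largest difference from vehicle. Of other lists, at most 4 genes past the threshold are named, those with the smallest p, and Erlin2, Srebf1, Mylip, Pltp, genes called only with the block and the array values of Fasn were added after their values were seen. Motifs were searched on both strands of RefSeq windows. The fit was tested on simulated data. Alternatives were the block, leaving out each array (also with the block, added after seeing the data), other filters, quantile normalization, median centring, probe set means, an intensity trend, and fits of only 2 groups.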

Additional observations from a re-analysis of the deposited data

How the results depend on the processing

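Blocking on the replicate number raised the count of falling genes from 8 to 13 against vehicle in either IBMX/Dex group. Leaving out 1 array, with or without the block, gave 3 to 13 falling and 0 to 3 rising genes with scrambled siRNA, and 5 to 13 and 1 to 3 with CD24 siRNA, where all genes gave 137 to 1558 lower and 176 to 1533 higher with scrambled siRNA, and 158 to 1676 and 139 to 1268 with CD24 siRNA. The same fits gave a median difference of -0.45 to -0.24 with scrambled siRNA, and of -0.12 to -0.022 between the siRNA groups, where quantile normalization gave -0.023. Without a filter 1 gene rose in each group, and with only the 2 groups compared 5 fell with scrambled siRNA and 1 rose with CD24 siRNA. These fits test more genes or estimate the spread from fewer arrays. All other counts of falling or rising genes stayed within 1.5 times the main count. A filter at the 75th percentile (8.07) left 23 of the 27 genes tested, with a median of -0.49 with CD24 siRNA in place of -0.30 and of -0.35 with scrambled siRNA in place of -0.28.

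Signs against vehicle turned for 6 genes, none of which passed under any setting run. Leaving out 1 array, differences from vehicle with scrambled siRNA ran from -0.46 to 0.050 for Lss, -0.34 to 0.0024 for Cyp51, -0.057 to 0.36 for Npc2 and -0.16 to 0.31 for Abcg1, and with CD24 siRNA from -0.015 to 0.23 for Scap, -0.12 to 0.25 for Npc2 and -0.15 to 0.31 for Abcg1. The mean of all probe sets gave -0.0069 for Scap and 0.054 for Npc1 with CD24 siRNA. The cause was not tested. Fdps and Srebf2 passed against vehicle in 17 of 17 unblocked or blocked alternatives chosen at the start, in both groups. All fits rest on 3 arrays a group, or 2 where 1 is left out.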
